A study of Drosophila melanogaster with 5 samples.

Results

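Some stretches of the genome hold many open-chromatin peaks of midline cells side by side, and the peaks of those stretches that were also open in the whole embryo are described here. The genome was divided into fixed windows of 50 kb, each peak was placed by its midpoint, and windows with 12 or more midline peaks were called dense. The members are the midline peaks of dense windows that overlapped a peak of the whole embryo by at least 1 bp. They were therefore chosen by their positions in the 2 lists, and by the authors' limit to the top 10000 peaks of each list. There were 1305 members among the 10000 midline peaks, which is 21.4% of the 6089 shared midline peaks.

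FAIRE-seq isolates DNA that is not held on nucleosomes after crosslinking and phenol extraction, and sequences it. The midline peaks came from 2 libraries of cells sorted for GFP from embryos of the strain sim3.7-Gal4 UAS-mCD8::GFP, and the embryo peaks from 2 libraries of whole OregonR embryos, both aged 6 to 8 hours after egg laying. In the sorted strain a fragment of single-minded regulatory DNA drives Gal4, which switches on a membrane-bound GFP, so the sorted population is whatever cells that fragment was active in. The groups also differ in strain, in dissociation and sorting, and in when and how long the chromatin was fixed. A further library of genomic DNA from adult virgin females of the strain y;cn,bw,sp served as input and had no values of its own here. The authors pooled the replicates of each group before calling peaks, so each group is 1 list with no spread between replicates, read depth is unknown, and no difference below could be tested over samples. The authors' scores lay between 44 and 1009 for midline peaks and between 70 and 1645 for embryo peaks. Their scale is not stated, so peaks were compared only by rank within a list, where rank 1 is the highest score and ties share a mean rank.

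Midline cells are the neurons and glia, and their precursors, at the midline of the ventral nerve cord, and single-minded is the master regulatory gene of their fate. Accessible sites in the embryo are mostly promoters and enhancers. In Drosophila, genes for developmental regulators often carry many separate enhancers spread over long introns and flanking DNA, each active in some of the tissues where the gene is used. Housekeeping promoters, in contrast, are open in nearly all cells. A cluster of open sites can therefore be one gene with many enhancers or several compact genes side by side, and positions alone do not tell which. The peak positions are on the dm3 build, for which no gene annotation or sequence was used here, so no gene is assigned to a window and no sequence is shown.

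There were 144 dense windows, which is 7.52% of the 1916 windows that held any midline peak. They covered 7.2 Mb and held 2087 midline peaks, or 20.9% of the list. A dense window held a median of 14 midline peaks (range 12 to 30), against a median of 4 over all windows with a midline peak. Midline peaks took up a median of 9.51% of the bases of a dense window (range 4.59 to 27.9%). The same windows held a median of 11 embryo peaks (range 2 to 23). In 120 of the 144 the embryo list had fewer peaks than the midline list, in 8 as many and in 16 more. The choice of windows by their midline count favours the first of these outcomes. Of the 98 windows that held 12 or more embryo peaks, 62 were dense midline windows, which is 63.3% of the former and 43.1% of the latter.

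**Figure D1:**
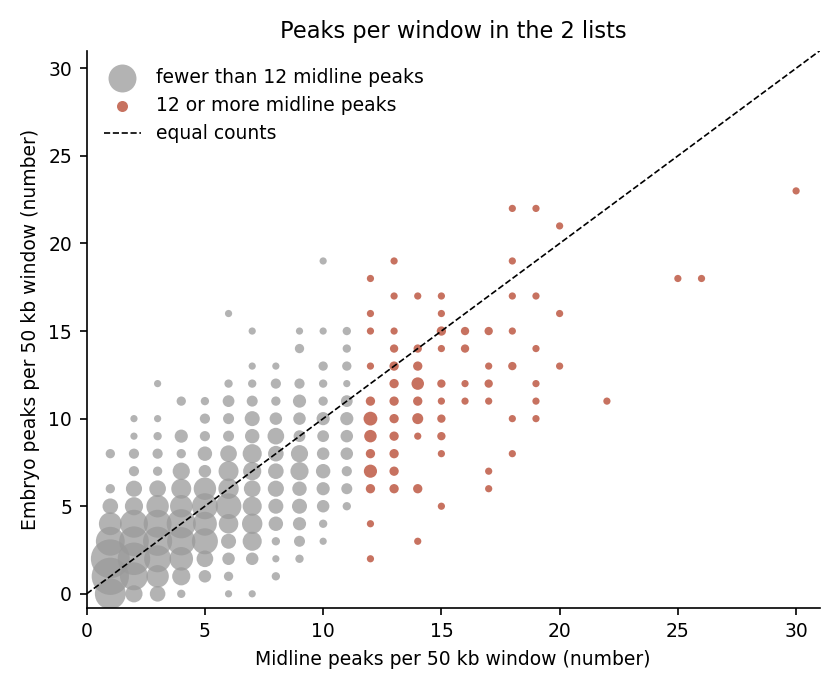
Number of midline peaks (horizontal axis) and of embryo peaks (vertical axis) in each 50 kb window that held a midline peak. A larger point stands for more windows with the same counts, red points are the 144 dense windows, and the dashed line marks equal counts; 120 of the dense windows lie below it.

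Most dense windows stood apart from each other. There were 104 single ones, while 40 joined into 16 groups of adjacent windows, of which 9 had 2 windows, 6 had 3 and 1 had 4. That longest group covered 2650001 to 2850000 of 3R, where 25 of 54 midline peaks were members (46.3%). The group at 21800001 to 21900000 of 3R had 33 members among 36 midline peaks (91.7%), and the group at 18850001 to 18950000 of 2L had 10 among 26 (38.5%). Neighbouring dense windows thus ranged from nearly all shared to mostly midline-only. These 3 groups were picked after their values were seen, for length and for the highest and lowest share.

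The 10 windows with the most midline peaks, with ties taken by more members, were on 2R, 3L and 3R. There were 7 windows with 20 or more midline peaks and 6 with 19, of which this tie rule took the 3 on 3L. The 3 left out were at 7150001 to 7200000 of the X (12 members), 2000001 to 2050000 of 2R (9 members) and 850001 to 900000 of 3R (8 members). The rule therefore favoured windows with many members. The densest, at 12050001 to 12100000 of 3R, held 30 midline peaks, 24 of them members, and 23 embryo peaks, of which 19 were shared. Its midline peaks covered 27.9% of the window. Next came 2450001 to 2500000 of 2R, with 26 midline peaks and 16 members, and 900001 to 950000 of 3R, with 25 and 14. In these 3 windows the members made up 80%, 61.5% and 56% of the midline peaks. The window at 2850001 to 2900000 of 3L had 22 midline peaks but 11 embryo peaks, and its 10 members were outnumbered by 12 midline-only peaks. Among all 13 windows with at least 19 midline peaks, members were outnumbered in 3, namely here and in the windows left out on 2R and 3R.

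The other 6 windows taken each held 19 or 20 midline peaks and between 13 and 17 members, the lower limit following from the tie rule. The window at 21800001 to 21850000 of 3R had 17 members among 20, with a median midline rank of 789.5, the best of the 10. The window at 6400001 to 6450000 of 2R had 15 members and 21 embryo peaks. The windows on 3L at 10800001 to 10850000, 17950001 to 18000000 and 18200001 to 18250000 had 14, 14 and 13 members. At 600001 to 650000 of 3L, 15 members lay beside 22 embryo peaks, 8 of which were embryo-only. At 18200001 to 18250000, in contrast, all 12 embryo peaks were shared.

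**Figure D2:**
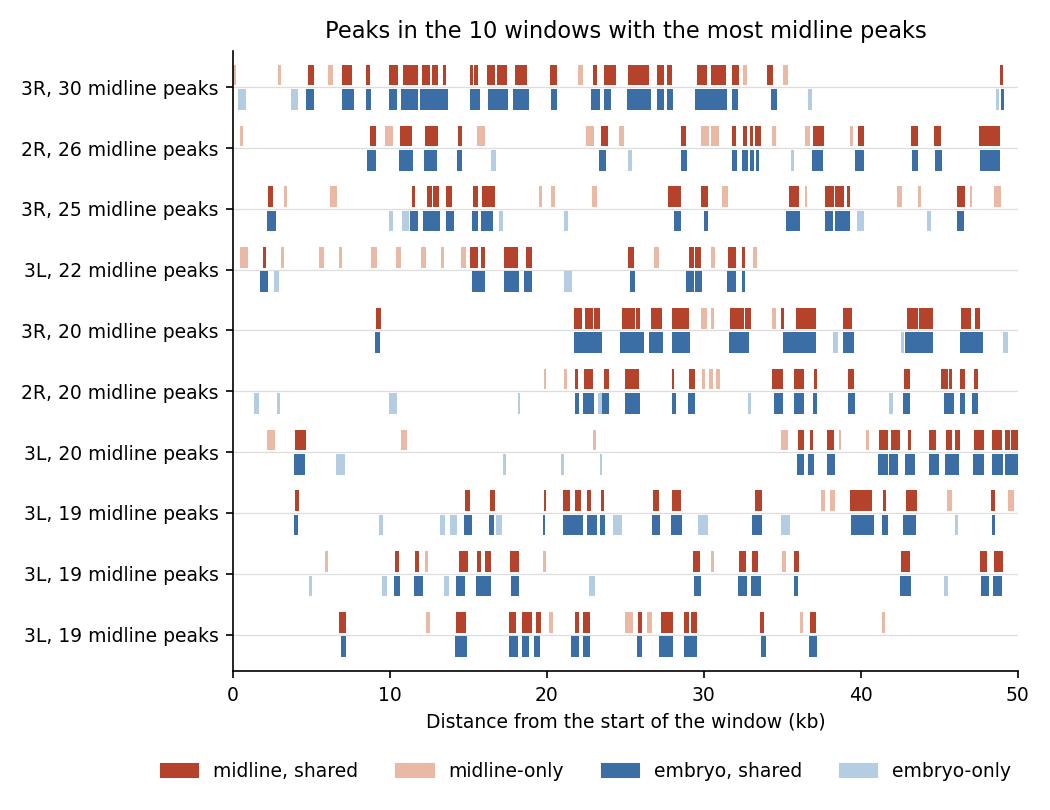
Peaks in the 10 windows with the most midline peaks (ties by more members), by distance from the start of the window in kb. Midline peaks are drawn above each line and embryo peaks below it, dark where shared and pale where found in 1 list; the top row holds 24 members among 30 midline peaks, the fourth row 10 among 22.

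Within dense windows the midline peaks were unevenly spaced. The median gap from the end of a peak to the start of the next was 1248 bp (quartiles 468 and 3251 bp, 1943 gaps), against 2870 bp over 6141 gaps in other windows, a shortening that the choice of windows builds in. The largest gap inside a dense window had a median of 10030 bp. A typical window thus mixed closely packed peaks with a long stretch that held no listed peak. Such a stretch need not be empty, since the list was cut. Inside dense windows 559 of the authors' peak numbers were skipped (median 3 per window), and only 6 windows had no skipped number. A skipped number may be a called peak that was left out, and its place is unknown. Whether random placement gives gaps of this size was not tested. Gaps under 500 bp made up 26.2% of those in dense windows and 19.7% elsewhere. Members lay closest to each other. The median gap was 829 bp where both neighbours were shared (845 pairs), 1599.5 bp where 1 was shared (758 pairs) and 1732 bp where neither was (340 pairs). In other windows the gaps were 1556, 3972.5 and 3763 bp in the same order, so shared neighbours were also the closest there. Some shared neighbours lay under a single embryo peak, namely 135 of the 845 pairs. The median gap of the remaining pairs was 1136.5 bp, still below that of pairs with a midline-only peak. Pairs with both peaks shared were 43.5% of neighbouring pairs in dense windows and 41.1% in other windows.

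By the rule of at least 1 bp, peaks in dense windows were shared slightly more often than peaks elsewhere. The amount depended on the grid, and the direction on the overlap rule. Of the 2087 midline peaks in dense windows 62.5% were shared (95% interval 60.4 to 64.6%), against 60.9% of all midline peaks and 60.5% (59.4 to 61.5%) of the 7913 in other windows. Intervals of shares were computed by the Clopper-Pearson method and reflect counting error alone. Grouped by the number of midline peaks in the window, the shared percentage was 55.5% at 1 or 2 peaks, 58.9% at 3 to 5, 62.1% at 6 to 8, 62.1% at 9 to 11, 60.1% at 12 to 14 and 65.8% (62.6 to 69.0%) at 15 or more. It was thus lowest in the sparsest windows and close to level between 6 and 14 peaks. Single counts did not follow the limit, with 63.2% (58.9 to 67.4%) at exactly 11 midline peaks and 58.1% (53.5 to 62.6%) at exactly 12. When 50% of each peak had to overlap, 46.4% of midline peaks in dense windows and 46.8% in other windows were shared, so the order turned. With the grid moved by 25000 bp the shares were 65.2% (63.2 to 67.3%) and 59.7%, a wider difference.

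At a matched midline rank, on the original grid, the small difference was not seen. In 10 steps of 1000 ranks, the shared percentage was higher in dense windows in 5 steps and lower in 5, by between -6.89 and 2.89 points, and the 2 intervals overlapped in each step. Among the 1000 highest ranks 96.6% of 291 peaks in dense windows and 96.6% of 709 elsewhere were shared. Among ranks 7001 to 8000 the percentages were 32.2% (26.0 to 39.0%) of 211 and 39.1% (35.7 to 42.6%) of 795. Had each step carried the share of other windows, 63.7% of the peaks in dense windows would have been shared, against the 62.5% found. These steps were chosen after the data were seen.

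**Figure D3:**
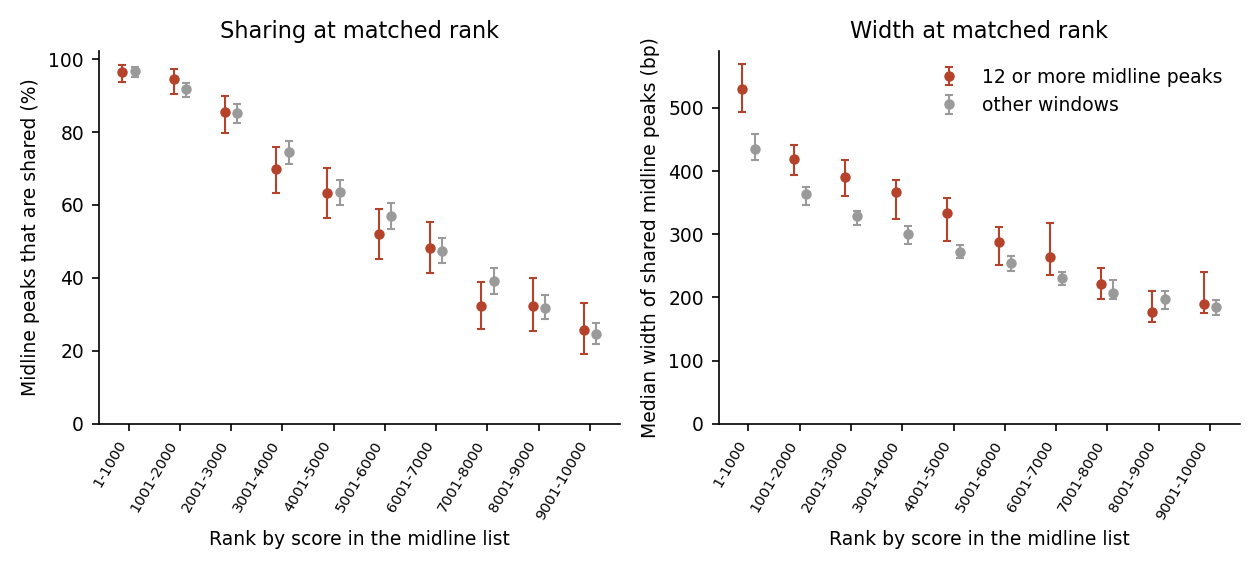
Percentage of midline peaks that are shared (left) and median width in bp of the shared ones (right), in steps of 1000 midline ranks. Red points are dense windows and grey points other windows, with exact 95% intervals for counting error; the shares overlap in all 10 steps, while members are wider in 9 of them.

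Single windows varied widely around the common share. The shared percentage had quartiles of 49.3 and 75% over the 144 windows and a median of 62.8%. In 108 windows at least 50% of the midline peaks were members. Every midline peak was shared in 3 windows, at 14950001 to 15000000 of 3L (16 peaks), 21850001 to 21900000 of 3R (16 peaks) and 2000001 to 2050000 of the X (13 peaks). The lowest shares were 2 of 12 at 1450001 to 1500000 of 3L, 3 of 14 at 450001 to 500000 of 3L and 3 of 12 at 19900001 to 19950000 of 2L. In those the embryo list held few peaks, 2, 3 and 4, and each of them was shared. These 6 windows were picked for their values.

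**Figure D4:**
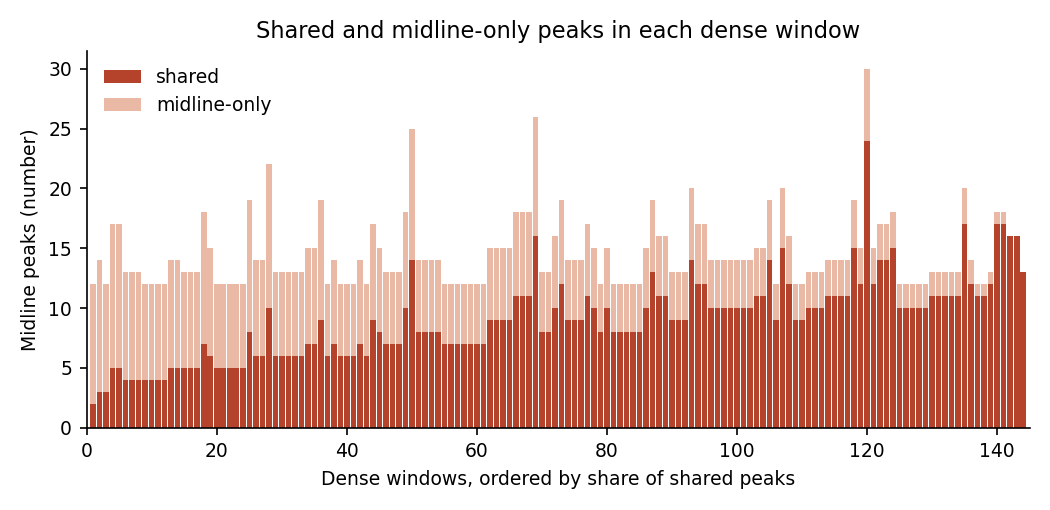
Number of shared and of midline-only peaks (stacked bars) in each of the 144 dense windows, ordered from the lowest to the highest shared percentage. The shared part runs from 2 of 12 peaks at the left to all peaks in 3 windows at the right.

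The embryo peaks of dense windows were more often shared than embryo peaks elsewhere, a direction that the choice of windows favours, since many midline peaks were there to be met. Of 1613 embryo peaks in dense windows, 73.0% (70.7 to 75.1%) overlapped a midline peak, against 56.6% of all embryo peaks and 53.4% (52.4 to 54.5%) of the 8387 elsewhere. A dense window held a median of 3 embryo-only peaks (range 0 to 9), and 14 windows held 0. The percentage was higher at each step in the number of midline peaks, with 33.3% at 1 or 2, 54.9% at 3 to 5, 62.8% at 6 to 8, 68.7% at 9 to 11, 71.6% at 12 to 14 and 74.9% at 15 or more. The midline share, in contrast, was close to level in the middle range.

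Members were wider than other shared peaks. Their median width was 365 bp (95% interval of the median 350 to 376 bp, quartiles 258 and 505 bp), against 301 bp (296 to 306 bp) for the 4784 shared midline peaks in other windows. Intervals of medians are exact binomial ones over peaks, which share their libraries and neighbours, and they cover counting error only. The median was 276 bp in windows with 1 or 2 midline peaks, 324 bp at 9 to 11, 351 bp at 12 to 14 and 380 bp at 15 or more. Single counts did not follow this order, since the shared peaks of the 47 windows with exactly 11 midline peaks, just outside the limit, had a median of 373 bp, and those of the 39 windows with exactly 12, just inside, 326.5 bp. Peaks at least 1000 bp wide were 24 of the members (1.84%) and 37 of the other shared peaks (0.773%).

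At a matched midline rank members were still wider. In steps of 1000 midline ranks the members had the larger median in 9 of 10 steps, and in 5 the intervals of the medians did not overlap. Among the 1000 highest ranks the medians were 530 bp (494 to 570 bp) and 435 bp (418 to 459 bp). Among ranks 4001 to 5000 they were 334 bp (290 to 358 bp) and 272 bp (263 to 283 bp). In the step from 8001 to 9000 the order turned, with 177 against 197 bp. Among the weakest members the width therefore differed little from that of other weak shared peaks. The midline-only peaks of dense windows were also somewhat wider than those elsewhere, with medians of 240.5 and 217 bp.

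The embryo peaks at the members were wider as well. Each midline peak was paired with at most 1 embryo peak, taking the largest overlap first, which gave 1173 pairs in dense windows and 4461 elsewhere, and left 132 members without a partner of their own. The median width of the partners was 487 bp (474 to 505 bp) in dense windows and 409 bp (403 to 416 bp) elsewhere. The embryo peak was the wider of the pair in 77.2% and 78.8% of pairs. The median ratio of embryo to midline width was 1.23 in dense windows and 1.27 elsewhere, so the widths of both lists were larger in dense windows by a like factor. In 647 of the 1173 pairs (55.2%) the member lay wholly inside its embryo peak, and the midpoints were a median of 39 bp apart, against 56.8% and 34 bp elsewhere.

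Broad embryo peaks covered several members at once more often in dense windows. The embryo peak over 251 members (19.2%, 17.1 to 21.5%) also overlapped another midline peak, against 14.6% of all shared midline peaks and 13.4% (12.4 to 14.4%) of those in other windows. Crowding alone raises the chance of such an overlap, and its part was not tested. The percentage was 15.1% at 12 to 14 midline peaks, no higher than the 15.8% at 6 to 8 and the 16.2% at 9 to 11, and 24.4% (20.9 to 28.1%) at 15 or more. The percentage was thus highest in the most crowded windows. Single counts did not follow crowding, with 19.1% (14.6 to 24.3%) at exactly 12 midline peaks and 13.5% at exactly 11. In dense windows 117 embryo peaks spanned several midline peaks, and the most under a single embryo peak was 5. The members under such peaks were narrower (median 329 bp) than the 1054 with an embryo peak of their own (372 bp). In other windows the medians were 284 and 304 bp.

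Members ranked somewhat higher by score than other shared peaks. Their median midline rank was 3029.5 (95% interval 2809.5 to 3241), against 3489.5 (3403.5 to 3594.5), and their median score 149 against 134. Single counts did not follow this order. Shared peaks of windows with exactly 11 midline peaks had a median rank of 2809.5, better than the members, and those with exactly 12 had 3255. The embryo partners of members had a median embryo rank of 2929 (2664 to 3125.5), against 3222 (3110 to 3341), with a median embryo score of 262 against 239. By the number of midline peaks, the median embryo rank was 3866 at 1 or 2, 3302 at 3 to 5 and 3061.5 at 6 to 8. It was 3036.5 at 9 to 11, 3173.25 at 12 to 14 and 2586 at 15 or more. At exactly 11 it was 2985, and at exactly 12 it was 3260.5. At a matched midline rank the embryo partners of members ranked better at the top of the list and worse in most other steps. Their median embryo rank was better in 3 of the 10 steps of 1000 midline ranks and worse in 7, with 567.25 against 879.5 at midline ranks 1 to 1000, 4939 against 3973.5 at 4001 to 5000 and 6641.5 against 5220.5 at 8001 to 9000. A larger part of the members than of other shared peaks stood at the top of the midline list. Of the 1305 members, 281 (21.5%, 19.3 to 23.9%) were among the 1000 highest midline peaks. The percentage was 15.9% for all shared midline peaks and 14.3% (13.3 to 15.3%) for those in other windows. At exactly 11 midline peaks the percentage was 20.2%, and at exactly 12 it was 17.6%. Of the 144 dense windows, 122 held a member among the 1000 highest, a count not made for other windows. A window with many members has more chances of holding such a peak. Against windows with 6 to 11 midline peaks the median embryo rank of the members' partners differed by -107.5 (approximate 95% interval -374 to 159), an interval that includes 0.

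Nearly every dense window had a shared peak as its highest. The highest midline peak was a member in 140 of the 144 (97.2%), against 548 of the 597 windows with 6 to 11 midline peaks (91.8%). A window with more peaks has more chances of a high one, and the part of this in the difference was not tested. The 4 exceptions were 19200001 to 19250000 and 19900001 to 19950000 of 2L, 11800001 to 11850000 of 2R and 850001 to 900000 of 3R, which are named for that reason. In 69 dense windows (47.9%) the highest midline peak was the partner of the highest embryo peak of the same window, a count not made for other windows. This match held in 7 of the 13 windows with at least 19 midline peaks, but not in the densest. The 7 include 2850001 to 2900000 of 3L, where 2 members had the same highest midline score and 1 of them met the highest embryo peak.

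The 10 highest-scoring members had midline ranks between 2.5 and 24 and lay in 8 windows, 6 of the peaks being on 2R, 3 on 3R and 1 on 2L. Their embryo partners all stood high in the embryo list, between ranks 43 and 485.5, and 8 of the 10 lay wholly inside the embryo peak. The first, at 12060802 to 12061775 of 3R, was 974 bp wide with a midline score of 922, and its embryo partner of 1093 bp had a score of 915 and rank 184.5. The densest window also held the fourth, at 12067964 to 12068717 of 3R, with a midline score of 814 and rank 7 and an embryo rank of 126. The 30 midline peaks of that window thus included 2 of the 10 highest members, although the median rank of its members was 3919.5.

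Another concentration lay on 2R. The peak at 8929545 to 8929949 had a midline score of 878 and rank 4, and an embryo rank of 372.5. The peak at 8926169 to 8926698 had a midline score of 732 and rank 20, and an embryo rank of 138.5. The adjacent dense window held another, at 8884329 to 8885093, with midline rank 24 and embryo rank 236. These 3 peaks fell within 2 adjacent dense windows, in which 18 of 31 midline peaks were members.

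The other 5 of the 10 were in separate windows. On 2R, the peak at 2019336 to 2019804 had midline rank 5 and embryo rank 90, that at 11722277 to 11722989 had ranks 10 and 158, and that at 18573433 to 18574026 had ranks 19 and 485.5. On 3R, the peak at 9540549 to 9541025 had midline rank 9 and embryo rank 171.5. On 2L, the peak at 19157945 to 19158706 had midline rank 21 and embryo rank 43, the closest agreement of the 10, under an embryo peak of 1282 bp that also overlapped another midline peak. In all 10 the midline rank was the better of the pair, which is what the choice of peaks by midline score favours.

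The highest member of each of the 10 windows taken ranked between 2.5 and 831 in the midline list and between 62.5 and 1222.5 in the embryo list. In the window left out at 850001 to 900000 of 3R the best member ranked 1186, below a midline-only peak of rank 924. On 3R, the peak at 21831680 to 21832576 had midline rank 29.5 and embryo rank 62.5, and the peak at 912752 to 913103 had ranks 257.5 and 228.5. On 2R, the peak at 6429044 to 6429436 had midline rank 102 and embryo rank 1222.5, and the peak at 2462210 to 2463078 had 322 and 610.5. On 3L the peak at 17982225 to 17982659 had midline rank 36 and embryo rank 308.5, while the peak at 2867278 to 2868133 had 831 and 98.5. A second member of that window, at 2879450 to 2879795, had the same midline rank of 831 and an embryo rank of 895.5. Of these equal midline peaks 1 was thus far higher in the embryo list, while the other had nearly the same rank in both. The 3 other peaks on 3L were at 18222290 to 18222765 (midline rank 159.5, embryo rank 562), 639327 to 640699 (293 and 194) and 10849579 to 10850145 (444.5 and 590.5). Of these, the peak at 639327 to 640699 was the widest, with 1373 bp.

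Ranks in the 2 lists followed each other more closely at the members than at other shared peaks. Over the 1173 pairs in dense windows Spearman's correlation was 0.65 and Pearson's 0.58, against 0.57 and 0.52 over the 4461 pairs elsewhere. These are correlations across peaks of the same 2 pooled lists, both cut at 10000 peaks, and are given as a description without a test. By the number of midline peaks in the window, Spearman's correlation was 0.53 at 1 or 2 and at 3 to 5, 0.58 at 6 to 8, 0.60 at 9 to 11, 0.62 at 12 to 14 and 0.67 at 15 or more. It was 0.58 at exactly 11 midline peaks and 0.59 at exactly 12. Windows just inside the limit were thus not above those with 9 to 11. The range of ranks, which bears on a correlation, was slightly wider in dense windows. The quartiles were 1206.5 and 5464 for the midline rank of members against 1689 and 5859 for other shared peaks, and 1189.5 and 5657 against 1537 and 5565.5 for the embryo rank. The part of this in the higher correlation was not tested. Over pairs in which the embryo peak met no other midline peak, the correlations were 0.64 (1054 pairs) and 0.56 (4145 pairs). Peak widths in the 2 lists were correlated as well, at 0.63 and 0.59.

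In absolute terms the agreement was loose. The 2 ranks of a pair differed by a median of 1331.5 in dense windows and 1439.5 elsewhere. They were within 1000 of each other in 479 pairs (40.8%), against 39.3% of all pairs and 38.9% of those in other windows, which is little above the common level. Of 117 dense windows with at least 6 pairs, 114 had a positive correlation within the window (median 0.63). Correlations within single windows were not computed elsewhere, where ranks were also positively correlated over all pairs (0.57). The 3 dense windows with a negative correlation were 14500001 to 14550000 of 2L (-0.43), 19300001 to 19350000 of 2L (-0.09) and 7250001 to 7300000 of 2R (-0.02), each with 6 or 7 pairs. Such small numbers give no firm order.

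**Figure D5:**
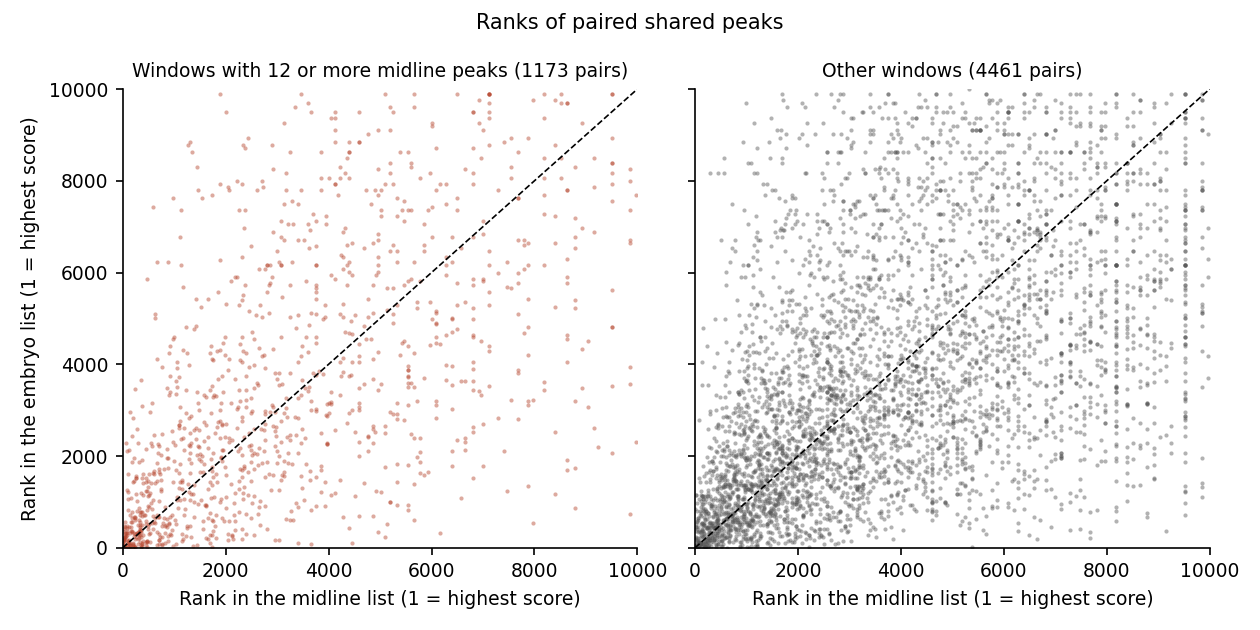
Rank in the midline list (horizontal axis) and in the embryo list (vertical axis) of each pair of overlapping peaks, in dense windows (left, 1173 pairs) and in other windows (right, 4461 pairs); the dashed line marks equal ranks. Points gather near the origin and spread widely at lower scores in both panels, with a Spearman correlation of 0.65 on the left and 0.57 on the right.

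The members with the most unequal ranks were taken 5 towards each list, so the 2 directions follow from the choice. So large a difference also needs a rank near the end of the other list, so the low scores there follow as well. The 5 that stood much higher in the midline list had midline ranks between 1264.5 and 2013 and embryo ranks between 8619 and 9892, and none lay wholly inside its embryo peak. The most unequal was at 18219276 to 18219625 of 3L, with a midline score of 207 (rank 1884.5) and an embryo score of 71 (rank 9892), close to the lowest embryo score of 70. The others were on 3R at 2802854 to 2803291, 11403871 to 11404501 and 937706 to 938275, and on 2R at 9890646 to 9890969. Their widths of 324 to 631 bp were like those of their embryo partners, at 0.59 to 1.24 times the midline width.

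The 5 that stood much higher in the embryo list were weak midline peaks inside wider embryo peaks. They were 156 to 344 bp wide, below the member median of 365 bp, although the widest was above the 189 bp median of members at midline ranks 9001 to 10000. All 5 lay wholly inside the partner, which was 2.16 to 7.35 times as wide. Their midline scores of 44 to 56 were near the lowest of the list, which the choice by rank difference builds in. The most unequal was at 14962806 to 14963149 of 3L, with midline rank 9847.5 and embryo rank 732. It was 344 bp wide under an embryo peak of 1267 bp that also overlapped another midline peak. It lies in one of the 3 windows in which every midline peak was shared. The others were on the X at 7219169 to 7219324 and 19669314 to 19669590, on 3R at 11413188 to 11413374 and on 3L at 16482560 to 16482785. The window at 11400001 to 11450000 of 3R held a peak taken in each direction. These were the member at 11403871 to 11404501 with midline rank 1264.5 and that at 11413188 to 11413374 with midline rank 9972.

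The arms differed in how many dense windows they held. Dense windows were 11.2% of the windows with a midline peak on 2R (39 of 349), 8.68% on 3R (40 of 461), 7.2% on 3L (28 of 389), 5.99% on 2L (22 of 367) and 4.29% on the X (15 of 350). The members numbered 365 on 3R, 358 on 2R, 267 on 3L, 170 on 2L and 145 on the X. The X thus had the fewest members but the highest shared percentage in its dense windows, 72.5% (65.8 to 78.6%), against 67.0% (64.4 to 69.5%) in its other windows. On 3L the 2 percentages were 63.7 and 56.8%, and on 3R 62.1 and 59.7%. On 2L (56.7 and 57.7%) and 2R (61.7 and 62.5%) the percentage was lower in dense windows, so the direction was not the same on all arms.

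Width held on every arm, whereas rank did not. The median width of members was larger than that of other shared peaks on each of the 5 arms, from 317 against 276 bp on the X to 398.5 against 309.5 bp on 2L. The paired embryo peaks were wider on each arm as well. The median midline rank was better for members on the X (2950 against 4041.5), 3R (2772.5 against 3241) and 3L (3069.5 against 3489.5), but not on 2L (3580.75 against 3538) or 2R (3255 against 3177). The median embryo rank of the partners was better in dense windows on the X (2421.5 against 3358), 3R (2653 against 3164), 3L (3101.25 against 3474) and 2R (2697.5 against 2985), and worse on 2L (3626.5 against 3182.5). Spearman's correlation of ranks was higher for members on 2L (0.65 against 0.59), 2R (0.68 against 0.60), 3R (0.71 against 0.60) and the X (0.63 against 0.51). On 3L it was lower, at 0.48 against 0.53.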

How the data were processed

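FAIRE-seq peaks of sorted midline cells and of whole embryos were compared. Per the submitters' processing notes, the authors used CASAVA 1.8.2, Bowtie2, SAMtools, bedtools and MACS2 with the dm3 build; for none of these is a role or setting given in the sources used here. By the peak names of the deposited lists, peaks were called on pooled replicates. By the names of the lists themselves, the top 10000 were kept, and the value that ranked peaks for this cut is not stated. The deposited score is a whole number of unstated scale, used only to rank peaks within a list. Depth is unknown, and no library batch is given. All columns belonged to these groups (0 others).

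Overlaps, windows, pairs and correlations were computed in Python 3.11.15 (numpy 2.4.6, pandas 2.3.3, scipy 1.17.1, matplotlib 3.10.9). Window and member counts, shares, midline widths and rank agreement were checked on simulated lists. In these each shared peak had a single partner in the same rank order. Embryo peaks over several midline peaks, gaps and steps of rank were not covered by that check. Coordinates are 1-based. The text names the 10 windows with the most midline peaks (ties by more members, then position), their highest members, the 10 highest-scoring members and the 5 with the largest rank difference each way; others are said to be picked for their values. The members, the limits and these rules were chosen with earlier results of these data known. Alternatives changed the peak minimum, the grid, the overlap rule, the list length, the strength measure, the pairing and the windows compared.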

Additional observations from a re-analysis of the deposited data

How the results depend on the processing

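Each of the 11 results was recomputed under the alternatives that apply to it, and no difference between dense and other windows in width, rank or rank correlation changed direction; 39 of the 60 recomputed values stayed within the interval of the value reported, or within 1.5 times a reported count. With a minimum of 10 midline peaks there were 250 dense windows with 2003 members and a median gap of 1381.5 bp. With a minimum of 15 there were 50 windows with 578 members, 65.8% of midline peaks shared, a median gap of 1000.5 bp, an embryo width difference of 113 bp, an embryo rank difference of -636 (members minus others) and 24.4% of members under an embryo peak with several midline peaks. A grid moved by 25000 bp gave 144 windows and 65.2% of midline peaks shared (59.7% elsewhere). With a reciprocal overlap of 50%, 46.4% of midline peaks (46.8% elsewhere) and 60.0% of embryo peaks (44.2% elsewhere) in dense windows were shared, and 0% of members had a split embryo peak, since this rule allows no such pair. Against the 5000 highest peaks of the other list, 45.3% of midline peaks in dense windows were shared (43.3% elsewhere). For embryo peaks in dense windows the share was 54.1% (36.5% elsewhere). Ranks by width differed by -1424.5 in the midline and -1025.5 in the embryo list. Against windows with 6 to 11 midline peaks, members were wider by 49 bp and their embryo partners by 58 bp. Without 3L the rank correlation was 0.68, and without any other arm between 0.62 and 0.65. No paired analysis was possible because each group is a single pooled list, which also prevents leaving out a replicate. With depth unknown, a peak found in 1 list may be undetected rather than closed in the other. It may also have been called in the other group and left out by the limit of 10000. Peak numbers ran to 15189 in the midline and 17552 in the embryo list.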
